A study of Mus musculus with 2 samples.

Results

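M-opsin dominant cones are the cones of the mouse retina whose opsin messenger RNA is almost wholly Opn1mw, the opsin for middle wavelengths. They were chosen from droplet single-cell RNA sequencing of whole mouse retina by the RNA counts themselves. A barcode was called a cone when Arr3, Opn1sw, Opn1mw, Gnat2, Pde6h and Gngt2 together had at least 10 UMIs (unique molecular identifiers, 1 per captured RNA molecule) and at least 1% of its UMIs, with at least 5 from the 2 opsins. A cone was M-opsin dominant when at most 0.1 of its opsin UMIs came from Opn1sw, the opsin for short wavelengths. The rule found 207 such cells among 626 cones and among 21790 barcodes kept from both libraries. Of these, 153 came from mice kept under short-wavelength light and 54 from mice kept under full-spectrum white light. Both exposures began on postnatal day 14 and lasted 2 weeks, and each condition is 1 library of all retinal cells. Strain, sex, the lamps used and the number of mice behind each library are not given in the sources used here. The comparison cells are the other 419 cones, of which 280 were co-expressing cones (Opn1sw share between 0.1 and 0.9) and 139 were S-opsin dominant cones (share of at least 0.9).

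Cones carry daylight and colour vision, and mice have only the short-wavelength and the middle-wavelength opsin. Many mouse cones make both opsins, with Opn1mw prevailing in the dorsal retina and Opn1sw in the ventral retina. Thyroid hormone acting through its nuclear receptor, encoded by Thrb, is needed for Opn1mw and holds back Opn1sw. Other nuclear receptors such as RXR gamma (Rxrg) and COUP-TFII (Nr2f2) take part in the same choice, and the homeobox gene Vax2 marks the ventral retina.

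The bases just upstream of both opsin genes are shown because the balance of these 2 genes defines the cells. They come from RefSeq on GRCm38.p6, run 5′ to 3′ on the gene's own strand, and end at the base before the annotated start. Opn1mw lies at chrX:74127216-74127465 on the plus strand and Opn1sw at chr6:29380514-29380763 on the minus strand. RefSeq and GENCODE M21 place the start of Opn1sw differently: the GENCODE gene extends to 29388468, so the Opn1sw window lies inside that longer gene model. Capitals mark matches, on either strand, to the nuclear receptor half-site AGGTCA or to the TATA box TATAAA.
Opn1mw: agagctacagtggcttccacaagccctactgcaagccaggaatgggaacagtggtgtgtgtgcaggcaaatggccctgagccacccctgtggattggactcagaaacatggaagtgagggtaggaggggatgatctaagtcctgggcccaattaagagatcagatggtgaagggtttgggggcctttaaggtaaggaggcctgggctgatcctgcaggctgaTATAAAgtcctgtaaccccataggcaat
Opn1sw: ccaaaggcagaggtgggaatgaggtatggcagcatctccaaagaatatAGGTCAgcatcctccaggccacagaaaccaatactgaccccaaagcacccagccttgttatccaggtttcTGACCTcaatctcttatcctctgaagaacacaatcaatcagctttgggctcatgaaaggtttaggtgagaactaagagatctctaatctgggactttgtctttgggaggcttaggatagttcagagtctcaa
The Opn1mw window held TATAAA from 28 to 23 bases before the start and no AGGTCA. The Opn1sw window held AGGTCA at 202 to 197 bases before the start, its reverse complement at 132 to 127 bases, and no TATAAA. Neither window held the Crx core TAATCC. Over all 32851 windows of the same length, 14% held AGGTCA, 12.4% held TATAAA and 6.25% held TAATCC, so single matches are common.

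Cone markers that the rule did not use were present at high levels in the members. Pde6c, the catalytic subunit of cone phosphodiesterase, stood at 1209 CPM (UMIs of the gene per 1000000 UMIs of the summed cells) under short-wavelength light and 1166 under white light, against 9.25 and 9.58 in rod barcodes. Cngb3, a subunit of the cone cyclic nucleotide-gated channel, stood at 2964 and 2778 CPM, against 17.4 and 18.6 in rods. Both genes were thus far above the level that rod droplets carried, in each library. The members also held RNA of genes used as markers of other cells. The 11 rod markers summed to 17677 and 19050.2 CPM in the members, 20273 and 23512 in the other cones and 37496 and 39481 in rod barcodes. The 5 rod bipolar markers summed to 541 and 291 CPM in the members and 257 and 460 in the other cones. They summed to 787 and 865 CPM in rod barcodes. Trpm1 was at 0 in the white-light members. Prkca alone stood at 293 and 158 CPM in the members and 753 and 814 in rods. Car8 stood at 84.8 and 122 CPM in the members, so the sums do not measure bipolar RNA alone. The 5 cone bipolar markers summed to 29.2 and 5.10 CPM in the members against 83.1 and 125 in the other cones. Of these, Cabp5 alone stood at 74.7 and 103.0 CPM in the other cones, and Vsx1 was at 0 in every cone class.

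Opn1mw was abundant in every member and Opn1sw was almost absent, as the rule requires. Under short-wavelength light a member held from 5 to 110 Opn1mw UMIs with a median of 39, and under white light from 5 to 129 with a median of 52. As a share of the cell's UMIs the medians were 5948 and 6018 CPM, while the summed UMIs gave 5905 and 7055 CPM, a ratio of 0.84 (counting interval 0.80 to 0.88). The per-cell medians were thus close and the summed level was lower under short-wavelength light. No Opn1sw UMI was seen in 117 of the 153 members under short-wavelength light and in 42 of the 54 under white light. A further 17 and 8 members had 1 such UMI, and 19 and 4 had more. Near the limit, the members closest to it in the short-wavelength library had 4 Opn1sw with 40 Opn1mw UMIs (share 0.0909), and the nearest cone outside had 4 with 35 (share 0.1026). In the white-light library the nearest member had a share of 0.0833 and the nearest cone outside 0.1111.

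Summed Opn1sw in the members, which the rule limits, was close to the level carried by rod droplets. It stood at 59.3 CPM under short-wavelength light and 56.1 under white light, against 59.0 and 63.4 in rods, which should lack it. At full depth 23.5% and 22.2% of members had an Opn1sw UMI, against 13.3% and 14.7% of rod barcodes, but members were deeper, with median totals of 6787 and 7298 UMIs against 2394 and 2748. Thinned to 1000 UMIs per cell, the shares were 5.05% and 5.56% in members and 5.53% and 5.91% in rods. At full depth 12.4% and 7.41% of members had 2 or more Opn1sw UMIs, against 1.70% and 3.02% of rods. Because the rule limits Opn1sw, these values are a description and support nothing about its expression in the members. Opn1mw, thinned in the same way, was found in 98.8% and 99.2% of members and in 3.51% and 4.06% of rods.

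**Figure D1:**
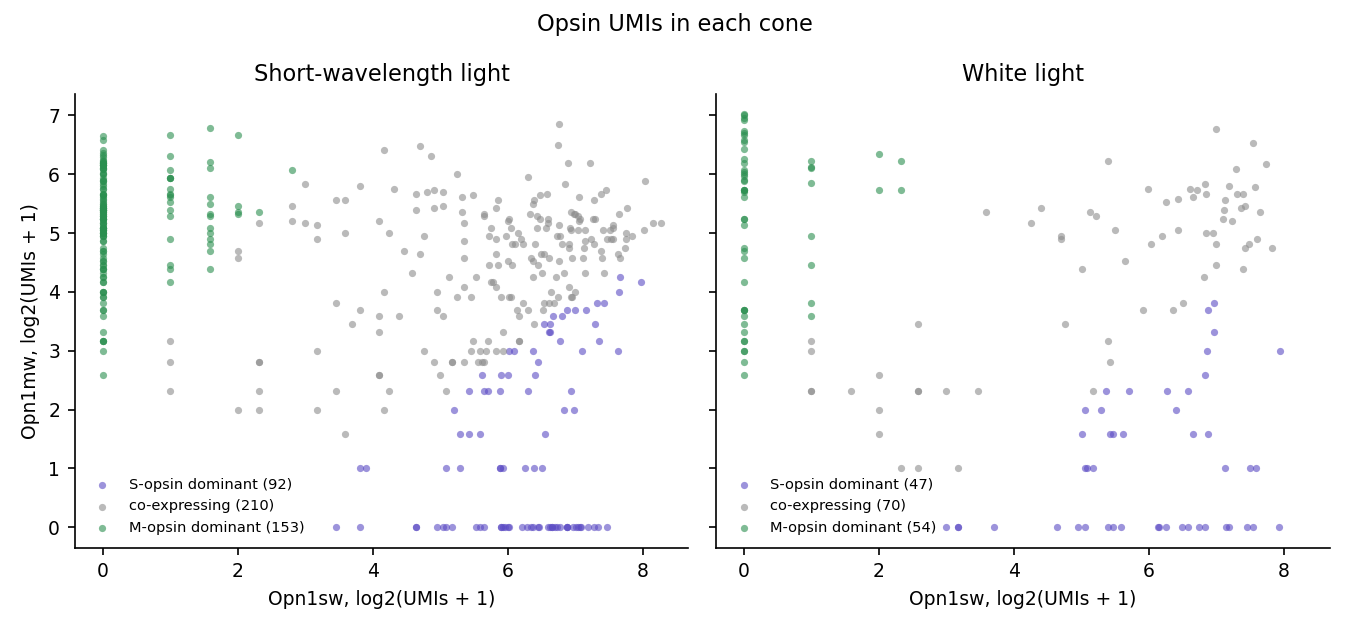
Opn1sw against Opn1mw UMIs, both as log2(UMIs + 1), for each of the 626 cones, with 1 panel per library. The members (green) form a column at the left, 117 and 42 of them at 0 Opn1sw UMIs, while co-expressing cones (grey) spread to the right and S-opsin dominant cones (violet) lie along the lower edge.

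The members made up a similar share of cones in both light conditions. They were 33.6% of 455 cones under short-wavelength light (exact Clopper-Pearson interval 29.3 to 38.2%) and 31.6% of 171 under white light (24.7 to 39.1%). As a share of all barcodes kept they were 0.951% and 0.948%. Neither difference was detectable at this number of cells, and with 1 library per condition no test between conditions was possible. The intervals here and below cover counting error only.

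The members' median depth was close between the libraries, but the white-light library held more shallow members. The lower quartile was 5093 UMIs under short-wavelength light and 3822 under white light, and 21 of 153 and 15 of 54 members had under 20 opsin UMIs. Member totals ranged from 1038 to 20204 UMIs under short-wavelength light and from 886 to 15583 under white light, and S-opsin dominant cones were shallower, with medians of 5401 and 3356. The sums tested held 1096879 UMIs for the members and 2021076 for the other cones under short-wavelength light, and 392069 and 766707 under white light. The median mitochondrial share of the members was 2.75% and 3.15%. The libraries shared 26 barcode sequences, none of them a cone.

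The members differed from the other cones in a small set of genes headed by Cdh12, Nr2f2 and Smug1 on the high side and by Ccdc136, Syndig1l and Cabp5 on the low side. UMIs were summed per library and class and tested with edgeR's quasi-likelihood test with library as a block and Benjamini-Hochberg adjustment. Of 9130 genes tested besides the rule genes, 62 were higher (0.679%) and 72 were lower (0.789%) in the members at an adjusted p under 0.05. The 4 sums leave 1 residual degree of freedom, so the spread rests on what all genes share. Without the barcodes of highest doublet score the counts were 26 higher and 47 lower, and DESeq2 called 6 and 7. The 6 named genes that DESeq2 also called were Cdh12, Nr2f2, Car8, Smug1, Ccdc136 and Syndig1l.

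More genes passed the test against S-opsin dominant cones than against co-expressing cones. In a fit of the 3 cone classes, 163 of 8012 genes were higher (2.03%) and 99 lower (1.24%) than in S-opsin dominant cones, and against co-expressing cones 23 were higher (0.287%) and 45 lower (0.562%). Of the 62 genes higher than in all other cones, 51 also passed against the S-opsin dominant cones, 21 against the co-expressing cones and 17 against both. Of the 72 lower genes, 53, 42 and 30 did. The size of one count against the other was not itself tested, and the comparisons share the member sums.

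Among regulators of opsin choice, 24 of 28 listed genes could be tested, and 3 were higher and 1 lower, beside 0.679% and 0.789% of all genes. The list median was -0.10, with 6 of 24 above 0. Nr2f2, the orphan nuclear receptor COUP-TFII, stood at 64.7 CPM in the members against 7.92 in the other cones under short-wavelength light, and at 74.0 against 5.22 under white light. The log2 difference was 3.21 (SE 0.35, adjusted p = 1.41e-17 by edgeR's quasi-likelihood test). Members were above the other cones in both libraries. An Nr2f2 UMI was found in 52 of 153 and 17 of 54 members, and in 15 of 302 and 4 of 117 other cones. Thinned to 1000 UMIs, these shares were 5.71% and 8.46% in members, against 0.801% and 1.64% in co-expressing cones and 2.01% and 2.47% in rods, so the members exceeded the rod level and the co-expressing cones did not.

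Genes next to Nr2f2 on chromosome 7 moved with it. Nr2f2 spans 70351944 to 70366735 on the minus strand of mm10 (GENCODE M21 gene models), and the non-coding gene B130024G19Rik starts inside that span on the opposite strand. B130024G19Rik was higher by 2.18, Gm28258 by 3.04, Gm44532 by 2.62 and Gm44812 by 1.73 on the log2 scale, all past the same test. Gm44532 was the most abundant of them, at 306 against 55.4 CPM and at 242 against 26.1 CPM. B130024G19Rik overlaps Nr2f2, Gm28258 and Gm44532 on the opposite strand, and their counts may not be independent.

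Thrb, the thyroid hormone receptor gene needed for Opn1mw, was higher by a small amount. It stood at 1379 CPM in the members and 1062 in the other cones under short-wavelength light, and at 1189 and 1039.5 under white light (log2 difference 0.28, SE 0.08, adjusted p = 0.0424 by edgeR's quasi-likelihood test). The gap lay with the S-opsin dominant cones, at 752 and 637 CPM, while co-expressing cones stood at 1171 and 1221 CPM, above the members in the white-light library. In the fit of the 3 classes the log2 difference from S-opsin dominant cones was 0.86 (SE 0.11). The call against all other cones was lost in 10 of the alternatives, removal of the highest doublet scores among them. Samd7, a silencing partner in photoreceptor nuclei, was higher by 0.54 and its relative Samd11 lower by 0.43. Both of those calls were also lost without the highest doublet scores.

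Most other regulators did not pass the test. Rxrg stood at 55.6 and 48.5 CPM in the members against 61.8 and 47.0 in the other cones, and Crx, the photoreceptor homeobox gene, at 507.8 and 558.6 against 520.02 and 521.7. Dio2 and Dio3, which activate and inactivate thyroid hormone, and Nr2f1, the partner of Nr2f2, had no UMI in the members of either library. Of 13 thyroid hormone genes 6 could be tested, and Thrb alone was called, beside 1.47% of all genes in either direction.

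In the list drawn up for the dorsoventral axis of the retina, Nr2f2 was high and Vax2 and Ccdc136 were low. The list was chosen with earlier results of these data known, so its calls are a description. Ccdc136 also lies next to Opn1sw, whose share defines the members. Only 11 of the 36 listed genes had enough counts, and 1 was higher and 2 were lower, beside 0.679% and 0.789% of all genes. Their median difference was 0.23 in the fit against -0.00 over all genes tested. The medians within the libraries were -0.03 under short-wavelength light and 0.11 under white light, so they differ in sign. Vax2, the ventral homeobox gene, stood at 11.9 CPM in the members against 33.6 in the other cones under short-wavelength light, and at 2.55 against 44.3 under white light (log2 difference -2.01, SE 0.40). In rods it was higher still, at 71.7 and 67.3 CPM. Its antisense neighbour Vax2os was lower too, by 0.94 on the log2 scale, and the 2 genes overlap. Tbx3, Tbx5 and Vax1 had no UMI in the members, and Tbx2 had 3 in all.

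Ccdc136, a coiled-coil gene next to Opn1sw, had the smallest adjusted p of all genes outside the rule. It stood at 127.6 CPM in the members and 1292 in the other cones under short-wavelength light, and at 66.3 and 1312 under white light. The log2 difference was -3.60 (SE 0.12, adjusted p = 8.52e-198 by edgeR's quasi-likelihood test), and it held against S-opsin dominant cones (-3.80) and co-expressing cones (-3.52). Opn1sw lies on chromosome 6 at 29376671 to 29388468 on the minus strand and Ccdc136 at 29396309 to 29426994 on the plus strand, so the 2 genes do not overlap in this annotation. Ccdc136 in the members was still above its level in rods, at 8.96 and 11.04 CPM. The short-wavelength members held more of it than the white-light members, at a ratio of 1.92 (1.26 to 3.05), while the ratio in other cones was 0.98 (0.92 to 1.06). That difference between classes was not tested.

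Cdh12, a classical cadherin of neurons, had the largest fitted difference of the 12 higher genes named by size, close to that of Nr2f2. Within the libraries Myocd had the larger ratio under short-wavelength light and Nr2f2 under white light. It stood at 126.7 CPM against 11.9 in the other cones under short-wavelength light and at 206.6 against 23.5 under white light (log2 difference 3.27, SE 0.22, adjusted p = 7.07e-47 by edgeR's quasi-likelihood test). It was seen in 45 of 153 and 20 of 54 members, and in the S-opsin dominant cones it had 0 and 2 UMIs in all. Most members had no Cdh12 UMI at their depth.

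Smug1, which removes uracil from DNA, was the most abundant of the named higher genes. It stood at 333.7 and 344.3 CPM in the members against 115.8 and 112.2 in the other cones (log2 difference 1.54, SE 0.13). In rods Smug1 stood at 138.2 CPM in both libraries, above the other cones and below the members. Car8, a carbonic anhydrase relative without enzyme activity that is also used as a rod bipolar marker, stood at 84.8 and 122.4 CPM against 19.3 and 40.4. Its log2 difference was 1.89, and it was also called when cones with bipolar RNA were left out. Rods held Car8 at 4.94 and 4.47 CPM, below every cone class.

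The other named higher genes have varied roles. Myocd, the serum response factor coactivator myocardin, was higher by 2.85 on the log2 scale (25.5 against 1.98 CPM, and 23.0 against 6.52 CPM), the kinase gene Alpk2 by 2.13, and the ephrin receptor gene Epha5 by 1.52. Zfhx4, a zinc finger homeobox gene, was higher by 1.46 and Pcdh9, a protocadherin, by 1.40. Pcdh9 was gathered in few cells, with 26 of its 112 short-wavelength member UMIs in 1 cell. Under white light it was seen in 6 of 54 members and 10 of 117 other cones. The actin regulators Cap2 and Tmod2 were higher by 1.58 and 1.197 and lost their calls without the highest doublet scores. In the fit of the 3 classes neither was called against S-opsin dominant or co-expressing cones, and Alpk2 was not called against S-opsin dominant cones. Kif4, a kinesin of chromosomes, was higher by 1.26, at 57.4 and 38.3 CPM against 22.3 and 18.3. It was not called against co-expressing cones in the fit of the 3 classes. It starts at 100625737 on the plus strand of chromosome X, downstream of the rule gene Arr3, which ends at 100618493 on the same strand and was itself higher in the members. The part of Arr3 in the Kif4 counts was not tested.

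Among the 12 lower genes named by size, several had few UMIs in the members. Syndig1l, a relative of a synapse differentiation gene, stood at 17.3 and 12.8 CPM in the members against 176.6 and 170.9 in the other cones (log2 difference -3.45, SE 0.23). Cabp5, a calcium sensor best known from bipolar cells, stood at 10.0 and 2.55 CPM against 74.7 and 103.0. Cacna1h, a low-voltage calcium channel, stood at 4.56 and 7.65 CPM against 43.5 and 33.9. App, the amyloid precursor gene, had 3 and 2 UMIs in all the members, and 82 and 27 in the other cones. App was thus near the counting limit in the members and plainly counted in the other cones.

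Other lower genes were as sparse in the members. Galnt17, of the family that starts O-linked sugar chains, had 1 UMI in each member sum against 57 and 29 in the other cones. Wscd2 had 2 UMIs in the short-wavelength members and 0 in the white-light members, where a floor of 3 counts in that sum makes it at least 5.28-fold lower than in the other cones. Socs3, a brake on cytokine signalling, had 1 and 6 UMIs against 79 and 30, Srcin1 had 9 and 1 against 62 and 25, and Elfn2 had 7 and 4 against 72 and 19.

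**Figure D2:**
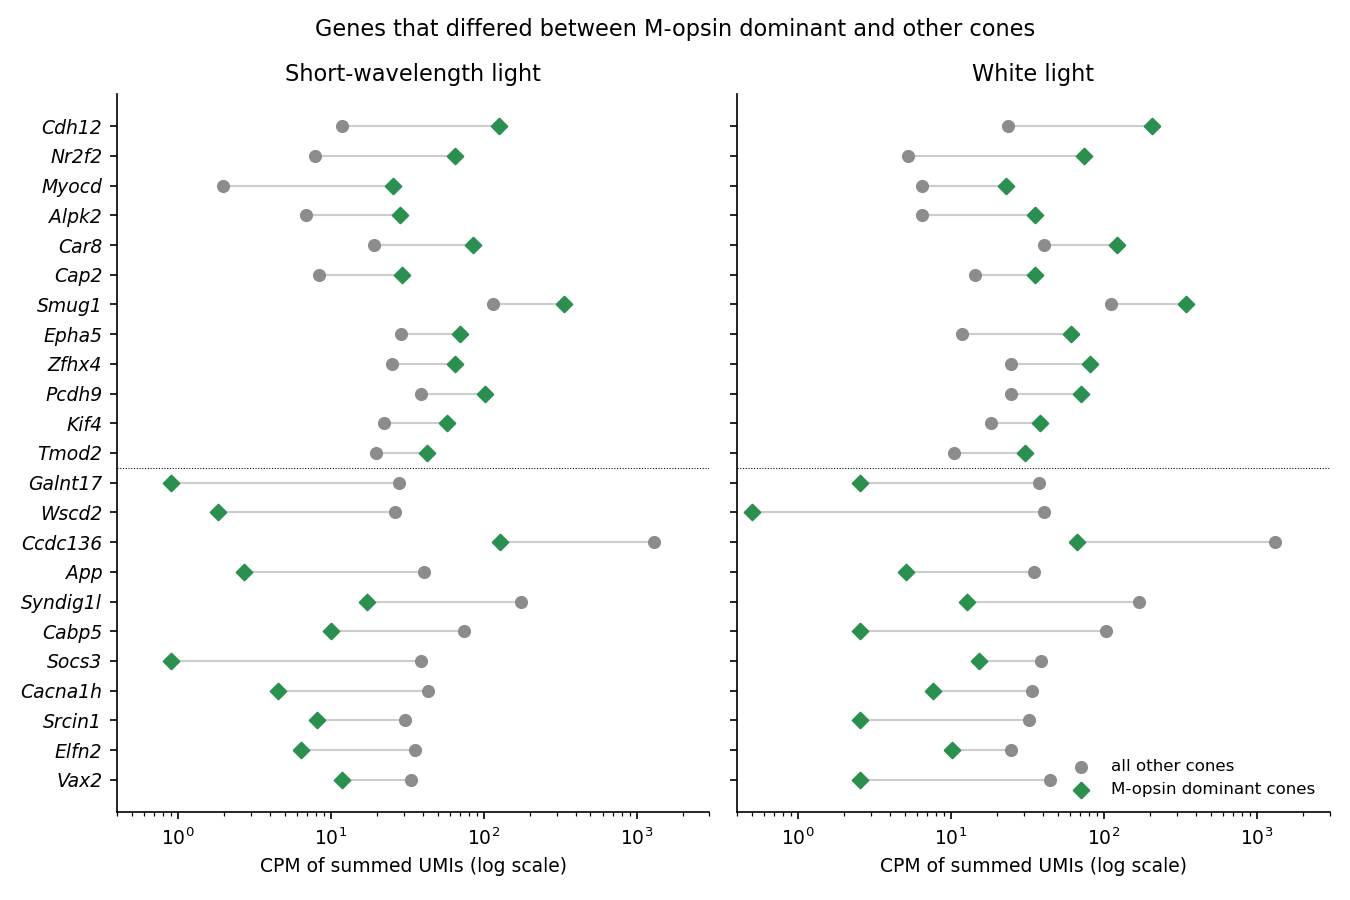
CPM of summed UMIs on a log axis for 23 named genes, in members (green diamonds) and all other cones (grey circles), with 1 panel per library. The 12 genes above the dotted line were higher and the 11 below it lower in both libraries, and Wscd2 in the white-light members, at 0 UMIs, is drawn at the left edge.

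Across cones ordered by their Opn1sw share, the levels of several of these genes changed in steps. In members with no Opn1sw UMI, Nr2f2 stood at 71.4 CPM under short-wavelength light, and at 48.1 in members with such UMIs, then at 13.2, 6.73 and 7.56 in the bins from 0.1 to 0.5, 0.5 to 0.9 and 0.9 up. Ccdc136 ran the other way, at 85.4, 233.9, 701.1, 1344 and 1514 CPM. Under white light it ran at 40.3, 148.1, 1164, 1263 and 1451 CPM. Thrb stayed between 1150 and 1484 CPM until the last bin, where it stood at 752 under short-wavelength light. These bins are cut from the rule's own genes and are given as a description.

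**Figure D3:**
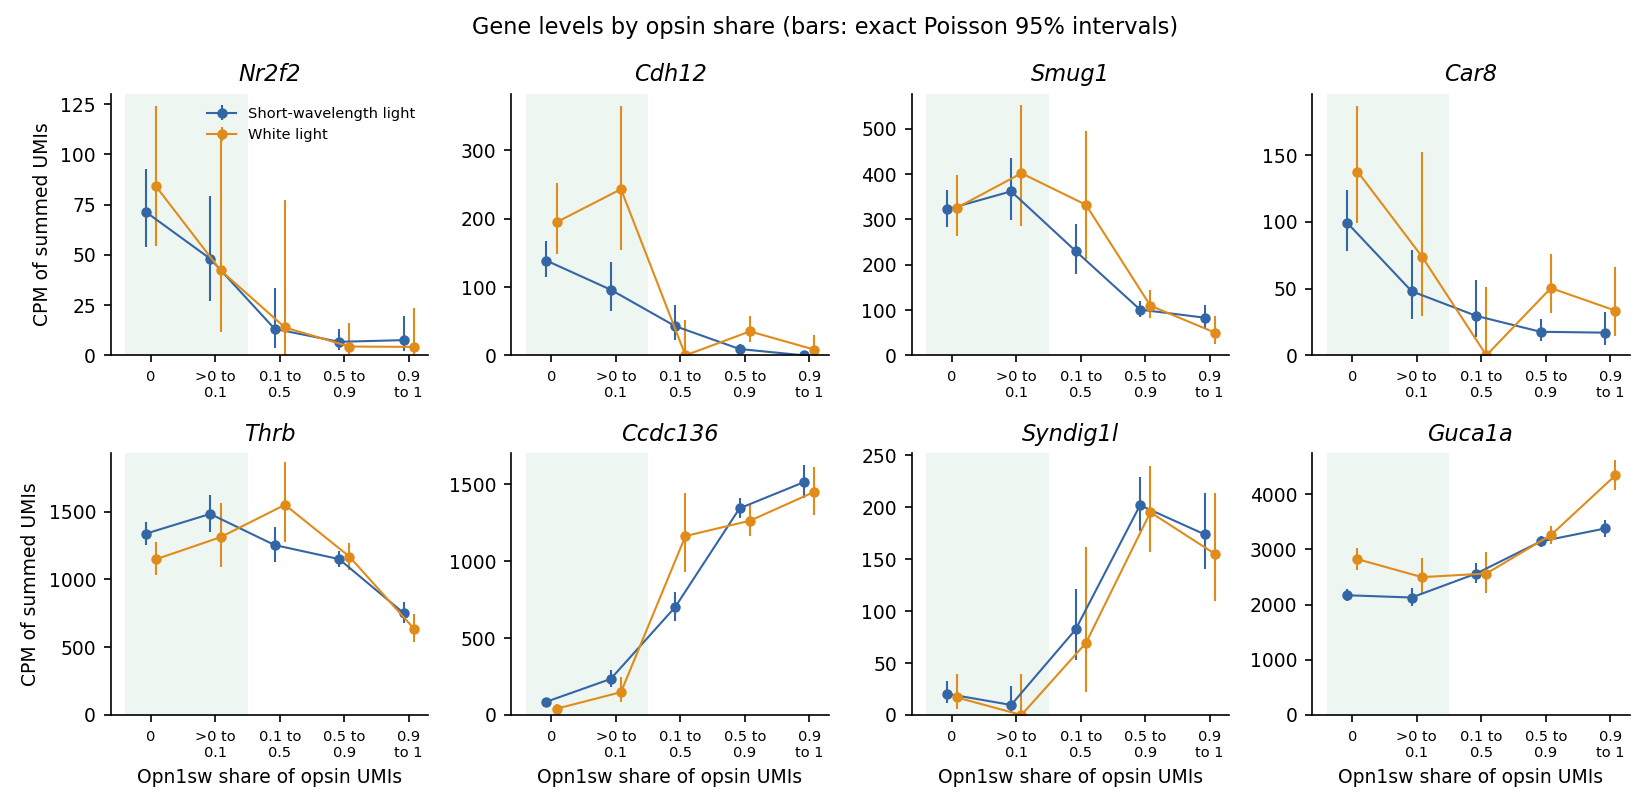
CPM of summed UMIs (vertical axis) in 5 bins of Opn1sw share (horizontal axis) for 8 genes, with exact Poisson 95% intervals, for short-wavelength light (blue) and white light (orange). The shaded first 2 bins are the members, where Nr2f2, Cdh12, Smug1 and Car8 were high and Ccdc136 and Syndig1l low, with white-light Ccdc136 at 40.3 and 148.1 CPM there.

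The phototransduction cascade was largely alike between the members and the other cones, apart from 2 calcium sensors. All 24 listed cone genes were tested, with a median difference of -0.09. None was higher and 2 were lower, beside 0.679% and 0.789% of all genes. Guca1a, which switches guanylate cyclase on when calcium falls, stood at 2157 and 2744 CPM in the members against 3117 and 3529 (log2 difference -0.47, SE 0.08). Guca1b, its neighbour on chromosome 17, stood at 564.3 and 512.7 CPM against 673.9 and 911.7 (log2 difference -0.50, SE 0.09). Both were lower than in S-opsin dominant cones, by 0.67 and 0.91. In the fit of the 3 classes Guca1a passed against both S-opsin dominant and co-expressing cones, and Guca1b did not pass against both. Among the rule genes, which carry no test here, Arr3 stood at 9718 and 8751 CPM in the members against 6044 and 5590, and Gnat2 at 1836 and 2206 against 1935 and 1966.

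Of 14 rod genes tested, 4 fell in the members, among them Sag, Pde6b and Gnb1, and none rose. Over all genes tested 0.789% were lower and 0.679% higher. None of the 14 had a fitted difference above 0, and the median was -0.30 in the fit, -0.14 in the short-wavelength library and -0.42 in the white-light library. Sag, the rod arrestin that cones also make, stood at 4609 and 5461 CPM against 6475 and 6874. Without the highest doublet scores Sag was still called, and Pde6b and Gnb1 were not. All 4 calls were lost in the fit without the library term. The median share of 6 rod genes per cell was 1.38% and 1.58% in the members, against 1.85% and 2.08% in S-opsin dominant cones, so rod RNA per droplet moved with the same contrast and its part in these values was not tested.

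Outer segment, synaptic and membrane genes showed single changes, beside 0.679% higher and 0.789% lower over all genes tested. Cdhr1, a cadherin at the base of new discs, was higher by 0.47, at 632.7 and 732.0 CPM against 490.8 and 463.0, as 1 of 26 outer segment and cilium genes. Syt1, the vesicle calcium sensor, was higher by 0.27 and Elfn2 lower, among 25 ribbon synapse genes, and the Syt1 call was lost without the highest doublet scores. Kcnma1, the large-conductance potassium channel, was higher by 0.71, at 348.3 and 390.2 CPM against 224.6 and 211.3, as the call of 15 ion channel and pump genes. Among 15 adhesion and guidance genes, Pcdh9 was higher, and Nrxn3 and Cntn1 were among the lower genes.

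Nrxn3 set the S-opsin dominant cones apart and not the members. It stood at 291.7 and 237.2 CPM in the members, at 235.9 and 321.8 in co-expressing cones and at 1639 and 1484 in S-opsin dominant cones. Its difference from all other cones was -1.23, and from co-expressing cones alone it was 0.026. The lower call thus rested on 1 comparison class.

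Few genes of the housekeeping lists were called, and no test of whole lists was run. No gene was called among 39 nuclear oxidative phosphorylation genes, 20 of glycolysis and lactate handling, 19 chaperones or 17 clock genes. The same held for 18 antioxidant genes, 9 visual cycle genes, 4 nuclear RNAs and 81 cytosolic ribosomal proteins. Over all genes tested 1.47% were called, and at that rate lists of these sizes would hold few calls or none. All 8 fitted list medians were within 0.1 of 0 on the log2 scale. Within the short-wavelength and white-light libraries the medians were -0.28 and -0.26 for nuclear RNAs and -0.14 and -0.15 for the visual cycle. Of 13 mitochondrially encoded genes, mt-Cytb was higher by 0.27 and the median was 0.16. Jun was lower, by 0.58, among 9 immediate-early genes, at 67.5 CPM against 120.2 under short-wavelength light and at 112.2 against 118.7 under white light, and its call was lost in most alternatives. The mt-Cytb call was lost without the highest doublet scores. Among 11 tested markers of other retinal cells, Car8 and Trpm1 were higher and Cabp5 lower. The Trpm1 call rested on 76 UMIs in 8 short-wavelength members, 38 of them in 1 cell.

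**Figure D4:**
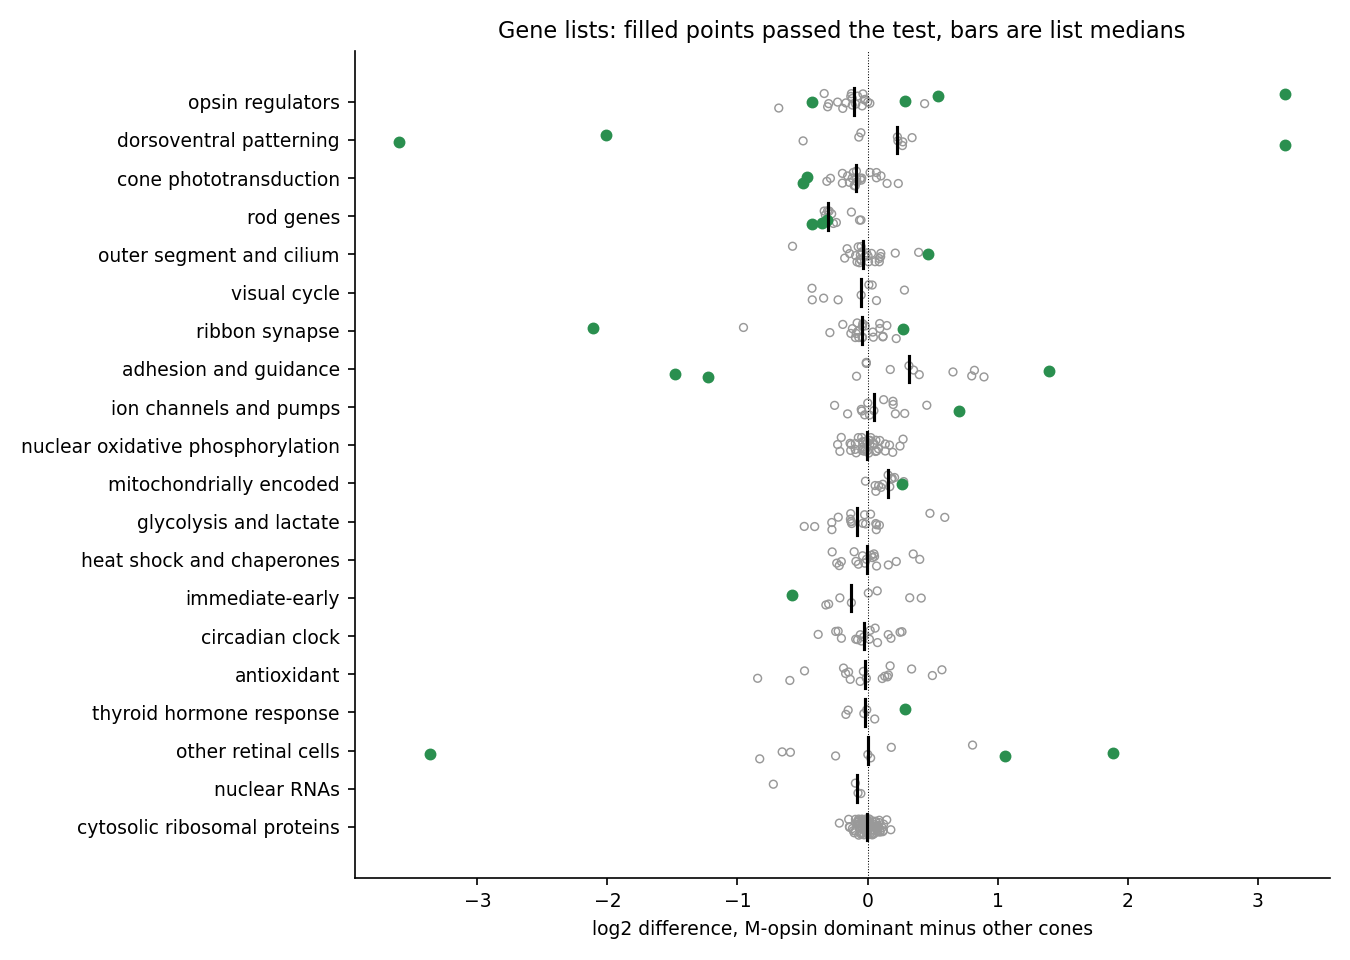
log2 difference of each gene between members and other cones (horizontal axis) for 20 gene lists (rows), with filled points for genes past the test and black bars at list medians. Most points lie close to 0, and the filled points far from it are Nr2f2 (in 2 lists), Ccdc136, Vax2, Elfn2, Cabp5 and Car8.

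Between the light conditions, few genes of the members differed beyond counting error by a large factor, and Hspa8 was lower under short-wavelength light. Of 7313 genes with at least 30 UMIs and 20 CPM, seen in at least 10 members, 13 (0.178%) were higher and 6 (0.082%) lower under short-wavelength light with an exact counting interval wholly beyond 1.5-fold. At any size, 350 intervals (4.79%) lay wholly above 1 and 321 (4.39%) wholly below. With 1 library per condition these are differences between 2 libraries, and light cannot be told apart from anything else that differed between them.

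Hspa8, the constitutive heat shock protein, was the lower gene with the most UMIs among the 5 named ones. It stood at 438.5 CPM under short-wavelength light and 823.8 under white light, a ratio of 0.53 (0.46 to 0.61), and at 0.61 (0.56 to 0.67) in the other cones. It was found in 132 of 153 and 52 of 54 members. The 18 chaperone genes tested had a median log2 ratio of -0.34 in the members and -0.25 in the other cones, with 15 of 18 below 0 and 6 with intervals wholly below 1, against 46.1% below 0 over all genes tested. Hspa8 was thus lower in both cone groups. It was lower in rod barcodes too, at 174.2 CPM under short-wavelength light and 248.8 under white light.

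Ribosomal and respiratory genes had smaller ratios below 1, and most of the ribosomal and nuclear respiratory genes had intervals that included 1. Of 81 cytosolic ribosomal protein genes 75 were below 0, 35 with intervals wholly below 1, with a median of -0.24 in members and in other cones. Of 39 nuclear oxidative phosphorylation genes 35 were below 0, 16 with intervals wholly below 1 (median -0.25, other cones -0.16), and of 13 mitochondrially encoded genes all 13 were, 11 with intervals wholly below 1 (median -0.29, other cones -0.11). The median over all genes tested was 0.04. The ribosomal median moved to -0.10 among members with at least 20 opsin UMIs and to -0.44 when cells were weighted equally. The part of cell depth in this shift was not tested.

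Clock and immediate-early genes went less evenly. The 16 clock genes had a median of -0.27 in members and 0.04 in other cones, with 11 of 16 below 0. The 8 immediate-early genes had a median of -0.00 in members and -0.32 in other cones, and 4 of the 8 were below 0. That median moved to -0.50 without the highest doublet scores, -0.35 without cones with bipolar RNA, -0.36 with cone genes at 2% or more of UMIs and -0.88 when thinned, so the gap to the other cones was not stable. Whether members and other cones differed in these medians was not tested. The 22 opsin regulators had a median of 0.15, and Thrb had a ratio of 1.16 (1.05 to 1.29) in members and 1.02 (0.94 to 1.11) in other cones. Nr2f2 had a ratio of 0.88 (0.56 to 1.40), Smug1 0.97 (0.79 to 1.19) and Cdh12 0.61 (0.46 to 0.82), and all 3 remained above the other cones in each library.

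The other lower genes named were sparse. Phpt1, a phosphohistidine phosphatase gene, had a ratio of 0.38 (0.26 to 0.57) on 57 and 53 UMIs, with 0.68 in the other cones (0.52 to 0.90). Krr1, of the small ribosomal subunit assembly, had 0.40 (0.25 to 0.64), with an interval in other cones of 0.69 to 1.57. Ankrd31 had 0.36 (0.21 to 0.61) on 30 UMIs in each library. Kcnj3, a G protein-gated potassium channel, had 0.17 (0.08 to 0.33), but 12 of its 28 white-light UMIs were in 1 cell.

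Of the 8 higher genes named, 5 had at most 11 UMIs in any 1 short-wavelength member. Klhl3, a cullin adaptor gene, had 43 UMIs in 37 short-wavelength members and 1 in the white-light members, a ratio of 15.4 (2.62 to 621). Cdkl3, a kinase gene, had 4.65 (2.04 to 13.0), Rexo1, an RNA exonuclease gene, 5.27 (1.95 to 19.99) and Odf2l 4.74 (1.74 to 18.0). Syne1, which links the nucleus to the cytoskeleton, had the most UMIs, 150 and 21, and a ratio of 2.55 (1.61 to 4.25). In the other cones the intervals of all 5 included 1.

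The remaining 3 higher genes had more of their UMIs in 1 cell. Pcp2, a rod bipolar gene, had 94 UMIs in 8 short-wavelength members, 51 of them in 1 cell, and 2 in the white-light members. Lrrtm4, a postsynaptic adhesion gene, had 79 in 9 members, 42 of them in 1 cell, and Cadps, a vesicle priming gene, had 69 in 33 members, 18 of them in 1 cell. With cones that held at least 5 UMIs of 8 bipolar genes left out, the higher count fell from 13 to 7. Pcp2 is itself among those 8 genes, so the filter acts on its own count and the fall is a description.

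**Figure D5:**
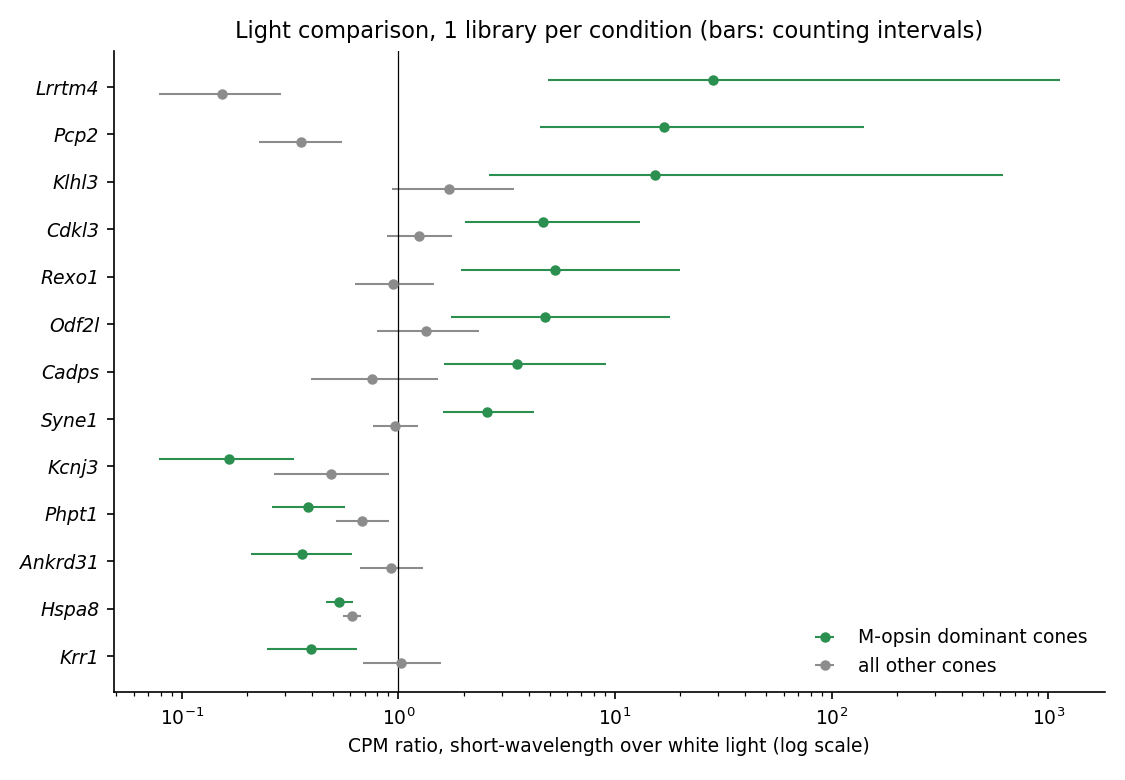
Ratio of CPM, short-wavelength over white light, on a log axis, for the 13 named genes in members (green) and other cones (grey), with exact counting intervals. Hspa8 lies below 1 in both groups (0.53 and 0.61), while Lrrtm4 and Pcp2 lie on opposite sides of 1 in the 2 groups.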

How the data were processed

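The deposited matrices hold whole-number UMI counts for every gene and cell barcode. Their headers name Cell Ranger 9.0.0 as the authors' counting tool, and the submitters' processing notes name mm10. The labels' protocols name 10x 3′ chemistry and leave its version open. Counts of 32285 genes were used as deposited, and a barcode stayed in with 300 or more genes detected and no more than 20% of its UMIs mitochondrial (16095 of 16106 under short-wavelength light, 5695 of 5707 under white light). Doublets were kept, and removing the highest Scrublet scores (scanpy 1.11.5), at 0.8% per 1000 barcodes, was an alternative. The members and gene lists were chosen with earlier results of these data known.

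UMIs were summed per library and class and fitted with edgeR 4.0.16 (TMM, filterByExpr, glmQLFTest, library as a block, R 4.3.3), and DESeq2 1.42.0 was an alternative. The library term takes up the difference between the 2 libraries. P-values thus set the class difference against its disagreement between them, with a spread shared over genes (biological coefficient of variation 0.057). They do not measure a spread between replicates of a light condition, as each condition is 1 library. On simulated data for this comparison (9130 genes), 38 of 50 genes raised 2-fold and 26 of 50 halved genes were called, and 10 of 8930 unchanged genes. The simulated sums had 1 common spread for all genes and no UMIs gathered in single cells or doublets. These counts therefore do not cover calls that rest on a few cells. Light ratios carry exact conditional binomial intervals. Named genes were those called with the same direction in both libraries and at least 20 CPM, the 12 largest differences each way, and for light the first 8 each way past 1.5-fold by the nearer bound. Members of the lists of opsin regulators, dorsoventral genes and phototransduction, and up to 4 of each other list with the most UMIs, could also be named. Rule, mitochondrial, ribosomal, haemoglobin and predicted genes were not ranked, nor were Xist, Tsix and the Y-linked genes Ddx3y, Eif2s3y, Kdm5d and Uty. The transcripts beside Nr2f2, and genes called within a list, were named after their values were seen. Values of 2 genes are not reported here or drawn, while counts and medians include them. Gene positions are from GENCODE M21.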

Additional observations from a re-analysis of the deposited data

Results flagged for a closer look

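For 7 genes the difference between M-opsin dominant and other cones pointed in opposite directions in the 2 libraries, with both counting intervals clear of 1. None of these differences between libraries was tested. The genes Hsp90aa1, Pcdh15 and Prkca were found in many cells, and Meg3 in 13 short-wavelength and 5 white-light members. Hsp90aa1, a chaperone gene, had a log2 difference of -0.29 under short-wavelength light and 0.18 under white light. Meg3, a long non-coding RNA, had -0.53 and 0.92, on 45 and 31 UMIs in the members. Pcdh15, a photoreceptor protocadherin, had -0.15 (-0.145 before rounding) and 0.07. Prkca, a kinase gene of rods and rod bipolar cells, had 0.54 and -1.01, with 69 of its 321 short-wavelength member UMIs in 1 cell and 79 of the 245 white-light UMIs of other cones in 1 cell.

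The other 3 are genes whose UMIs lay in a handful of cells. Lrrtm4 had a log2 difference of 3.28 under short-wavelength light and -4.24 under white light, where 33 of the 37 UMIs of other cones were in 1 cell. Pcp2 had 2.01 and -3.56, with 43 of the 46 white-light UMIs of other cones in 1 cell. Trpm1 had 2.27 under short-wavelength light and no UMI in the white-light members, and 25 of the 28 white-light UMIs of other cones were in 1 cell. Pcp2 and Trpm1 are themselves among the rod bipolar markers, so the sum of those markers is no separate check on these values. At least 5 bipolar UMIs were held by 19 of 153 members and 29 of 302 other cones under short-wavelength light. Under white light 5 of 54 members and 11 of 117 other cones held as many. Pcp2 is itself counted among those UMIs, and the part of bipolar RNA in these differences was not tested.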

How the results depend on the processing

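Against a count of 62 higher and 72 lower genes in M-opsin dominant cones, removal of the highest doublet scores gave 26 and 47, cones thinned to 1000 UMIs 2 and 2, DESeq2 6 and 7, a fit on co-expressing cones as the only comparison class 10 and 25, and a fit with no replicate block for library 33 and 43. A fit on S-opsin dominant cones as the only comparison class gave 150 higher. Thinning leaves fewer UMIs and genes to test, and the cause of the other changes was not tested. All of the 59 higher and 70 lower calls that could be fitted without the highest doublet scores kept their sign. Limits on opsin UMIs or share, cell filters, TMM against total UMIs and the low-count filter kept both counts within 1.5 times. Of the 24 named genes, 22 kept their call without the highest doublet scores, 6 with DESeq2 and 23 without the block.

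For light, the 13 higher and 6 lower genes became 8 higher without the highest doublet scores, 7 higher without cones with bipolar RNA (chosen after seeing the data), 3 and 0 when thinned, and 53 and 22 with cells weighted equally. Values that changed sign were Dscam (0.59 against S-opsin dominant cones alone), Nrxn3 (0.026 against co-expressing cones alone), Trpm1 (-1.98 with DESeq2), Pcp2 for light (-0.039 without the highest doublet scores) and Kcnj3 for light (0.055 when thinned). The share of members among cones moved between 31.0 and 36.9% under short-wavelength light and between 28.7 and 33.9% under white light. The white-light library alone gave -5.34 for Cabp5, -3.68 for Srcin1, -4.12 for Vax2 and 2.38 for Epha5, and -1.35 for Socs3 against -5.42 in the short-wavelength library. Ccdc136 stood at -3.34 and -4.31 in the short-wavelength and white-light libraries. With 54 white-light members, differences within these counting intervals were not detectable.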
